A study of Homo sapiens with 12 samples.

Results

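The long intergenic noncoding RNA genes considered here were selected on their symbol and their expression in DU145 prostate cancer cells. A gene was taken where its symbol was LINC followed only by digits and its expected counts summed to 120 or more over the 12 libraries. This rule found 187 of the 611 LINC genes in the table of 26341 genes. Of the remaining 424, 206 had no count in any library and 16 had a total of 90 to under 120. Just inside the limit were LINC00612 with 121 counts, LINC00882 with 127 and LINC00525 with 127, and just outside were LINC00488 with 119.31, LINC00412 with 116 and LINC01018 with 116. Leaving out the libraries of any group lowers the totals. Of the 187 genes, 176 would still have reached 120 counts without the vehicle libraries and 181 without the triptolide libraries. The number was 175 without the decitabine libraries and 174 without the combination libraries. All 187 passed the filter on low counts of the test described below.

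DU145 is a prostate cancer line from a metastasis to the central nervous system, and all 4 groups were grown from it. Ctrl cells received the vehicle DMSO, TPL cells 2 nM triptolide, DAC cells 33 nM decitabine, and DACTPL cells both drugs. Drug was given daily on 3 days and was followed by 17 days without drug, so RNA was taken at day 20 and the groups were compared after recovery rather than during exposure. Each group had 3 libraries of total RNA, sequenced in pairs of 100 bases. The labels conflict on decitabine in DACTPL, which is 33 nM in the characteristics but 3 nM in the protocol of treatment, and its dose there is therefore uncertain. The labels do not say that replicates were separate cultures, so the p-values measure the spread between these libraries, which may be technical. The study's title places the work in the question of whether triptolide sensitizes cancer cells to inhibitors of DNA methylation.

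Long intergenic noncoding RNAs are transcripts made between protein-coding genes, usually by RNA polymerase II, and many are spliced and capped like messenger RNAs. Some act at the site of their own transcription on nearby genes, some act in the nucleus or cytoplasm as scaffolds or as decoys for proteins and microRNAs, and for most no function is known. Decitabine is a cytidine analogue that traps DNA methyltransferases on DNA and so lowers methylation as cells divide, and triptolide blocks the helicase ERCC3 of the general transcription factor TFIIH.

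The label was checked against current RefSeq annotation. Of the 187 genes, 185 were matched, 168 of them to a gene now classed as long noncoding RNA, 16 to a gene now classed as protein-coding and 1 to a pseudogene. The 16 include LINC00116 (MTLN, the mitochondrial micropeptide mitoregulin), LINC00493 (SMIM26), LINC00998 (SMIM30), LINC00961 (SPAAR) and LINC00341 (SYNE3, a protein of the nuclear envelope). The spans of 29 genes overlapped a coding gene, and 143 genes were both classed as long noncoding RNA and free of such an overlap. A total of 44 genes now carry another symbol. LINC00086 and LINC00087 could not be matched because several genes share their older symbols, and counts of such near-identical loci may be divided between copies. Expected counts were whole in all 12 libraries for 40 genes and in none for 56, as happens where a read fits several transcripts and is divided between them.

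Depth ranged from 26.4 to 47 M expected counts per library, and the 187 genes together took 0.147% to 0.183% of it. Libraries differed in a trend of their counts on gene length, given with its values further on. The summed level of 4 epithelial markers (KRT8, KRT18, EPCAM, CDH1), in CPM (expected counts per library total multiplied by its TMM factor), was 1810 to 1890 in Ctrl, 2120 to 2350 in DAC, 1700 to 1940 in TPL, and 2040 to 2150 in DACTPL, so both decitabine groups lay above the other 2 without overlap. KRT8, an epithelial keratin, rose by 0.43 in DAC and 0.35 in DACTPL against Ctrl on the log2 scale (edgeR adjusted p = 8.09e-04 and 0.00256), and EPCAM fell by 0.20 in DAC (adjusted p = 0.0208). The sum of 6 stromal markers was 8.32 to 10.9 CPM in Ctrl, 8.17 to 12.4 in DAC, 8.01 to 12 in TPL, and 13 to 14.7 in DACTPL, above the rest. Of the 3 stromal markers tested, COL1A2 and PDGFRB rose in DAC (by 1.69 and 1.11, edgeR adjusted p = 0.0363 and 0.00971) and in DACTPL (by 1.95 and 1.06, adjusted p = 0.0127 and 0.0103) against Ctrl. The sum of 6 blood markers was 5.53 to 7.95 CPM over all libraries, and of the 3 tested PTPRC rose, by 1.52 in DAC and 1.56 in DACTPL (edgeR adjusted p = 0.0134 and 0.00919). The sum of 5 luminal prostate markers was 14.6 to 21.9 CPM, and of the 2 tested TMPRSS2 fell in DAC, by 1.89 (edgeR adjusted p = 0.0195). In each of the blood and luminal lists 1 marker was at 0 throughout. The part of these markers in the results was not tested, and in bulk RNA fewer cells that make a transcript cannot be told apart from less transcript per cell.

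Promoter sequence is shown for the 6 genes that were called in both decitabine groups against Ctrl, because DNA methylation, which decitabine lowers, sits at CG dinucleotides. Each window runs from 250 bases before to 50 bases after the annotated start in RefSeq (GRCh38.p14), 5′ to 3′ on the gene's strand, with each CG in capitals.
LINC01234 promoter, chr12:113773634-113773933, minus strand: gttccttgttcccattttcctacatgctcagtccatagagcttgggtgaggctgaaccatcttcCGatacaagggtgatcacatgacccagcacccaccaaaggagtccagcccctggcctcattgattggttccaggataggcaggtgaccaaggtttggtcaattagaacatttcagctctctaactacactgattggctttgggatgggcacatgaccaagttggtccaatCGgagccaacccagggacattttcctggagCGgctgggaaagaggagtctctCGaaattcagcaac
LINC00920 promoter, chr16:66408274-66408573, plus strand: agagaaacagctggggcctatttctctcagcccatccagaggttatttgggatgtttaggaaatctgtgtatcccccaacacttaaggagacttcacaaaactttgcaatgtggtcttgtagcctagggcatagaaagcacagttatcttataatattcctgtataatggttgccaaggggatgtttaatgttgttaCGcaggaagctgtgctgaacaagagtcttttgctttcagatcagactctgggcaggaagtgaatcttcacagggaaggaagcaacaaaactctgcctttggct
LINC01106 promoter, chr2:110384487-110384786, minus strand: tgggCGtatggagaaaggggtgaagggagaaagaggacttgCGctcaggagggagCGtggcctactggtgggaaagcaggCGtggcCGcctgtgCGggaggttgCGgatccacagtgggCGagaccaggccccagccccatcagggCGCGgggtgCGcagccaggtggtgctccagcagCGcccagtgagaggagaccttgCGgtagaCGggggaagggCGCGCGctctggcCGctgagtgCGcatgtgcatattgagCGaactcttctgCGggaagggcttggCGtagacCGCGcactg
LINC01270 promoter, chr20:50292470-50292769, plus strand: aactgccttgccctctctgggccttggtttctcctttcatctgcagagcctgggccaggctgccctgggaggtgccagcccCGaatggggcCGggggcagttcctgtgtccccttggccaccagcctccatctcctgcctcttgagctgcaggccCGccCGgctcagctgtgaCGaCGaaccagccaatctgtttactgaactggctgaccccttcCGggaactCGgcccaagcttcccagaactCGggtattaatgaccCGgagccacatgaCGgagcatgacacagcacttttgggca
LINC00482 promoter, chr17:81309199-81309498, minus strand: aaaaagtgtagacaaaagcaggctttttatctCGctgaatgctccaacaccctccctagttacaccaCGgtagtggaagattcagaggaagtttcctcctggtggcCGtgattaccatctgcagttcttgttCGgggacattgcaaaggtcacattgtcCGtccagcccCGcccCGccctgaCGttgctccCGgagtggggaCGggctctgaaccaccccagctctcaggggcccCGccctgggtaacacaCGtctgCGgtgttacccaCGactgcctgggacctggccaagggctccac
LINC00938 promoter, chr12:45727872-45728171, minus strand: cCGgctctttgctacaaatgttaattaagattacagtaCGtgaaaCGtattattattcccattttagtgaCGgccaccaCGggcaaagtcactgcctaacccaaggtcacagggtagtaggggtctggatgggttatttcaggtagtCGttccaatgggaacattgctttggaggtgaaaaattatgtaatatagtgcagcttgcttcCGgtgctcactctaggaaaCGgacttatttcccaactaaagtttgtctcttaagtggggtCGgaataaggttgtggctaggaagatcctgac
The windows differed widely in CG content. LINC01234, the only 1 of the 6 that rose, held 4 CG with an observed to expected ratio of 0.205, and LINC00920 held 1 with a ratio of 0.071. LINC01106 held 24 with a ratio of 0.777, LINC00482 held 14 with 0.554, LINC01270 held 11 with 0.387, and LINC00938 held 9 with 0.623. Only LINC01106 met both limits used here for a CpG-rich promoter, a ratio above 0.6 and a GC content above 50%. Over the 120 of the 187 genes with a promoter in the table, 47.5% were CpG-rich, against 46.8% of all 35116 promoters, and the median was 14 CG in each set. The motif CG reads the same on both strands, and 96% of all promoters held at least 1. Methylation itself was not measured in these files.

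Most of these RNAs were scarce. Mean TPM (a level scaled for both gene length and depth) over the 12 libraries reached 10 in 14 of the 187 genes and 1 in 95. LINC00657, now named NORAD, a cytoplasmic RNA that binds Pumilio proteins and is needed for stable chromosome number, took 23.9% of all counts of the 187 genes. Its TPM was 95.57, 95.51 and 102.42 in Ctrl, 76.52, 76.71 and 92.21 in DAC, 72.98, 73.27 and 100.43 in TPL, and 80.53, 84.14 and 89.16 in DACTPL. The first and second TPL and DAC libraries were the lowest, and the third TPL library lay among the Ctrl values. The order of groups depended on the scale, because mean CPM of LINC00657 was 397 ± 21.8 in Ctrl and 429 ± 57.5 in TPL (SD, n = 3), above Ctrl, while its mean TPM was 97.8 ± 3.97 and 82.2 ± 15.8. LINC00657 was called in no comparison (log2 fold change 0.11, edgeR adjusted p = 0.546 for TPL against Ctrl).

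The next most abundant were small-protein genes and RNAs studied in tumours. LINC00998 and LINC00493, which encode small membrane and mitochondrial proteins, had mean TPM in Ctrl of 57.4 ± 0.926 and 56.1 ± 2.44, and LINC00152, named CYTOR and abundant in many tumours, had 49.6 ± 3.45 (SD, n = 3). LINC00963, described in prostate cancer cells that grow without androgen, had 43.8 ± 3.31 TPM in Ctrl and 31.4 ± 0.859 in TPL, but its counts gave a log2 fold change of -0.10 (edgeR adjusted p = 0.491). LINC00506 varied most within groups among these abundant genes. Its TPM was 70.66, 65.64 and 65.27 in Ctrl, 28.27, 26.97 and 55.3 in DAC, 25.85, 22.84 and 54.27 in TPL, and 39.19, 60.05 and 61.24 in DACTPL. On this scale all 3 Ctrl libraries were above all others, and the first and second TPL and DAC libraries were far below the third. In CPM, DAC lay below Ctrl without overlap, while TPL and DACTPL overlapped Ctrl. No comparison was called (log2 fold change against Ctrl -0.77 in DAC, -0.62 in TPL and -0.17 in DACTPL, edgeR adjusted p = 0.202, 0.375 and 0.804).

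**Figure D1:**
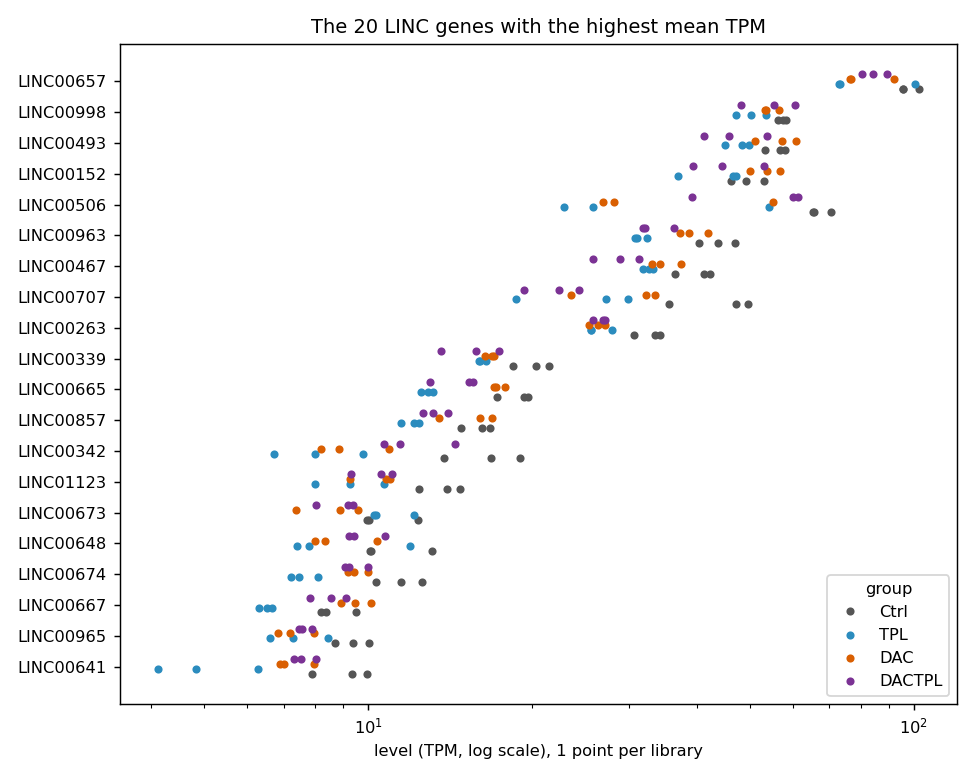
TPM per library on a log axis for the 20 LINC genes with the highest mean TPM, with 1 point per library coloured by group. LINC00657 leads with 72.98 to 102.42 TPM, and LINC00506 spreads from 22.84 to 70.66 TPM.

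Between groups, most of the 187 genes kept a similar level. In 126 the highest group mean was within 1.5-fold of the lowest, in 7 it was more than 2-fold above, and in 1, LINC01234, a single group held over 50% of the summed level of the 4 groups (52.9%, DACTPL). Ctrl was the highest group for 85 genes. A gene was called at a Benjamini-Hochberg adjusted p below 0.05 over all 15890 genes tested, with edgeR's quasi-likelihood test on counts, and 30 of the 187 were called in at least 1 of the 6 comparisons. The fold changes were small and leaned below 0 in each drug group: 137 genes (73.3%) were below 0 in DAC against Ctrl, 133 (71.1%) in TPL and 119 (63.6%) in DACTPL, against 48.5%, 50.1% and 47.4% of all genes tested. These 3 comparisons share the Ctrl libraries, and no test was made over the genes as a set.

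**Figure D2:**
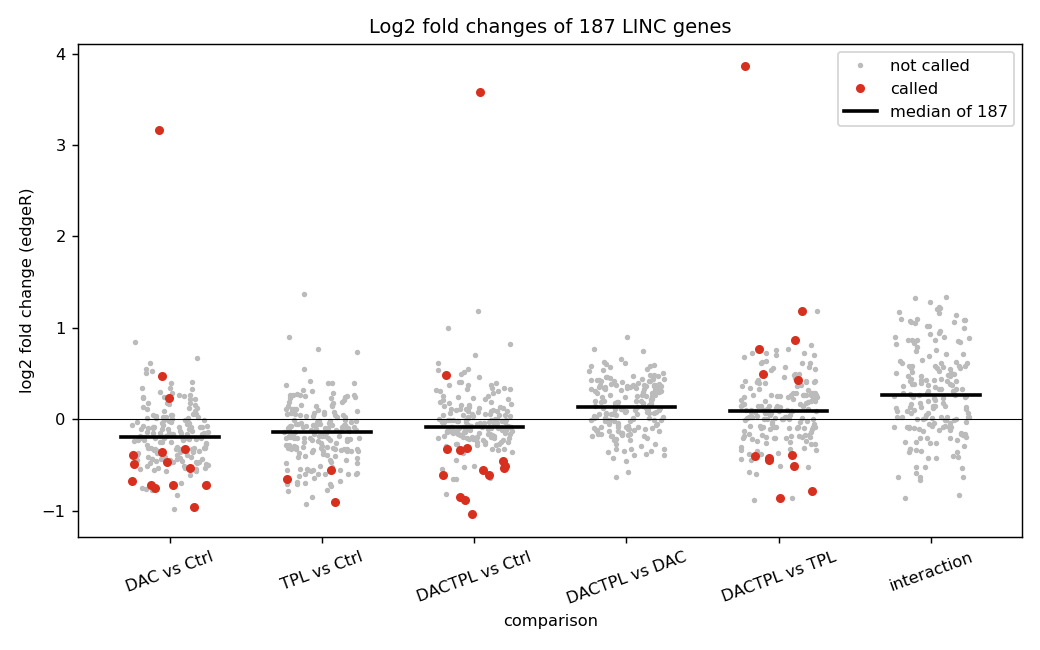
Log2 fold change of each of the 187 LINC genes in 6 comparisons, with called genes in red and a black line at the median. LINC01234 stands at 3.16, 3.58 and 3.86 in the 3 comparisons of a decitabine group with a group that had none, while all other values lie between -1.04 and 1.37.

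LINC01234, described as a tumour-promoting RNA in gastric and other cancers, had the largest difference. It had 6, 2 and 2 counts in Ctrl, 33, 25 and 33 in DAC, 2, 4 and 0 in TPL, and 42, 38 and 32 in DACTPL, all of them whole counts. Every library with decitabine was above every library without it, and the Ctrl and TPL values overlapped. It reached 120 counts in all only through DAC and DACTPL, so its membership depended on the groups in which it is high.

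In CPM, LINC01234 averaged 0.0868 ± 0.0576 in Ctrl, 0.79 ± 0.0688 in DAC, 0.0701 ± 0.0667 in TPL, and 1.06 ± 0.107 in DACTPL (SD, n = 3). It rose 8.91-fold in DAC against Ctrl (log2 fold change 3.16, SE 0.43, edgeR adjusted p = 5.13e-04). It rose 11.9-fold in DACTPL against Ctrl (log2 3.58, SE 0.42, edgeR adjusted p = 1.10e-04) and 14.5-fold against TPL (log2 3.86, SE 0.47, edgeR adjusted p = 1.90e-04). The difference between DACTPL and DAC was 0.42 on the log2 scale and did not pass the test (SE 0.29, edgeR adjusted p = 0.451), nor did that of TPL from Ctrl (-0.29, SE 0.73, adjusted p = 0.869). These folds rest on 10 counts in Ctrl and 6 in TPL. Without the first Ctrl library the log2 values were 3.84 in DAC and 4.27 in DACTPL, and against TPL the value was 4.74 without the second TPL library and 3.24 without the third. On the log2(TPM + 1) scale, which understates the change of low genes, they were 0.46, 0.58 and 0.61, and the authors' deposited table gives log2 values of 0.81, 1.02 and 0.98. LINC01234 was called in all 3 comparisons under each of the 23 alternatives in which it was tested. Even so it remained scarce, at a mean of 0.633 ± 0.0493 TPM in DACTPL, and was the 1 of the 187 genes in the authors' deposited list of 704 genes, with mean z-scores of -0.92 in Ctrl, 0.63 in DAC, -0.93 in TPL, and 1.22 in DACTPL.

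Decitabine alone lowered more of these genes than it raised. In DAC against Ctrl, 3 genes (1.6%) rose and 12 (6.42%) fell, against 6.27% and 3.59% of all genes tested. The median log2 fold change was -0.19, against 0.01 over all genes. On the TPM scale (limma, log2(TPM + 1)) the split was 1 higher and 26 lower, and with the replicate number as a block 6 rose and 19 fell, with all 15 calls among these 25. Of all genes, 10.3% were called on the TPM scale and 16.2% with the block. The median of all genes was itself shifted by -0.07 on the TPM scale. The other 2 rises were small: LINC00883, named DUBR, with a mouse counterpart that acts in muscle differentiation, rose by 0.47 (SE 0.13, edgeR adjusted p = 0.0415), and LINC00667 rose by 0.23 (SE 0.07, edgeR adjusted p = 0.0429).

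LINC00920, described in prostate cancer as a target of the ERG factor, fell most among the called genes. Its CPM was 1.29, 1.17 and 1.3 in Ctrl, 0.632, 0.66 and 0.636 in DAC, 1.08, 1.13 and 0.887 in TPL, and 0.817, 0.685 and 0.512 in DACTPL. All 6 decitabine libraries were below all 6 others. The log2 fold change was -0.96 in DAC (SE 0.19, edgeR adjusted p = 0.00635) and -0.88 in DACTPL (SE 0.19, adjusted p = 0.00825) against Ctrl.

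LINC01106 and LINC01270 showed the same division of libraries. LINC01106, whose span overlaps LIMS4 in the annotation and whose counts were not whole in any library, had 14, 15.3 and 13.7 CPM in Ctrl, 10.6, 10.1 and 9 in DAC, 13.2, 12.3 and 15.3 in TPL, and 10.8, 10.1 and 10.2 in DACTPL. It fell by 0.53 in DAC (SE 0.09, edgeR adjusted p = 0.0029) and by 0.46 in DACTPL (SE 0.09, adjusted p = 0.00522). LINC01270 had 9.71, 10.2 and 9.53 CPM in Ctrl, 7.51, 7.99 and 6.95 in DAC, 9.25, 9.54 and 8.87 in TPL, and 7.23, 6.79 and 6.59 in DACTPL. In both genes no decitabine library reached the lowest library without decitabine, and LINC01270 fell by 0.39 in DAC (SE 0.08, edgeR adjusted p = 0.00586) and by 0.51 in DACTPL (SE 0.08, adjusted p = 7.97e-04).

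LINC00482 fell by 0.47 in DAC (edgeR adjusted p = 0.0169) and by 0.55 in DACTPL (adjusted p = 0.005), from a mean of 4.6 ± 0.249 CPM in Ctrl to 3.34 ± 0.172 and 3.14 ± 0.354 (SD, n = 3). LINC00938 fell by 0.32 and 0.34 (edgeR adjusted p = 0.0412 and 0.0273), from 6.04 ± 0.412 CPM to 4.83 ± 0.405 and 4.76 ± 0.158. With LINC01234, LINC00920, LINC01106 and LINC01270 they make up the 6 genes called in both decitabine groups, 40% of the calls in DAC and 42.9% of those in DACTPL. These comparisons share the Ctrl libraries.

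**Figure D3:**
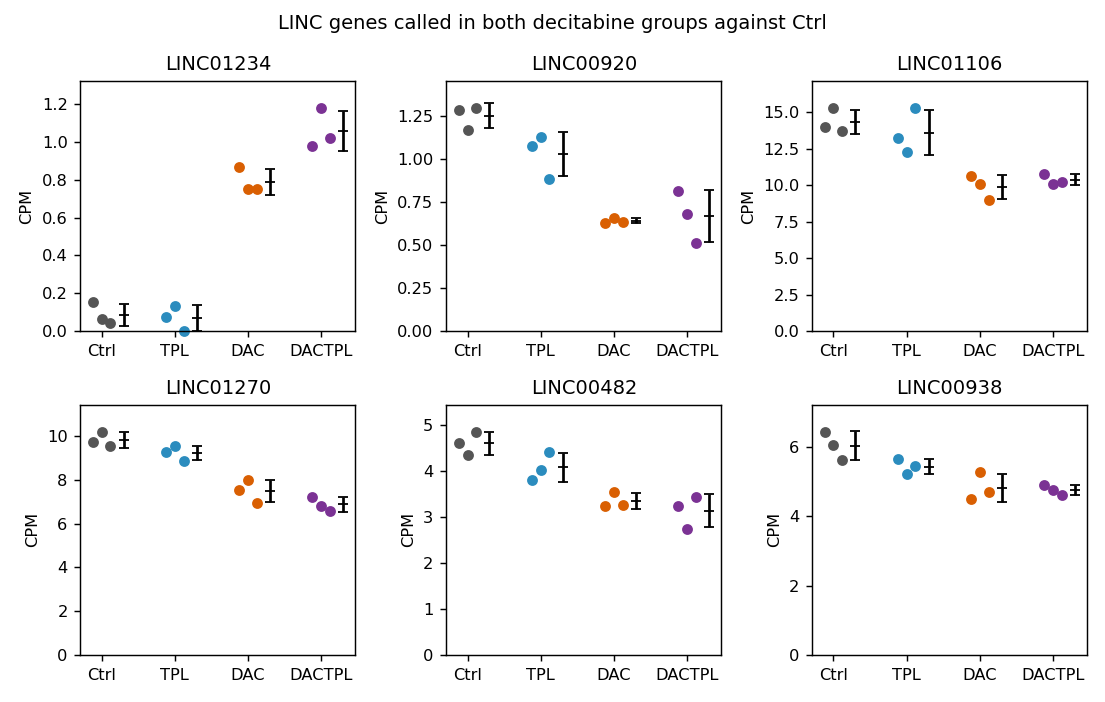
CPM per library (points, 3 per group) with mean and SD (black) for the 6 LINC genes called in both decitabine groups against Ctrl, on linear axes from 0. LINC01234 is near 0 in Ctrl and TPL and at 0.75 to 1.18 CPM with decitabine, while the other 5 lie lower with decitabine than in Ctrl.

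The remaining called falls of DAC against Ctrl were not called in DACTPL against Ctrl, although DACTPL against DAC called none of these genes either. LINC01355 fell by 0.75, LINC00923 by 0.72, LINC00342 by 0.72, LINC00839 by 0.72, LINC00637 by 0.68 and LINC00672 by 0.49 on the log2 scale (edgeR adjusted p from 0.0116 for LINC00342 to 0.0328 for LINC00672). A further fall, that of LINC01138 by 0.36 (edgeR adjusted p = 0.0154), lies outside the rule for named genes. LINC00637 is a divergent transcript of PPP1R13B and LINC00672 is now classed as the coding gene LASP1NB. LINC00342 had 43.3, 38.9 and 32.5 CPM in Ctrl, 21.2, 21.9 and 26.6 in DAC, 24.6, 20.9 and 27.7 in TPL, and 27, 38.4 and 29.4 in DACTPL. Both single-drug groups lay below Ctrl without overlap, and the second DACTPL library was level with Ctrl.

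Calls in DAC against Ctrl depended on single libraries. Their number was 5 without the first Ctrl library and 9 without the second. It was 7 without the first DAC library, 6 without the second and 24 without the third TPL library. Of all genes, 4.69%, 5.01%, 6%, 4.85% and 14.6% were called in these settings, in that order, against 9.86% with all libraries. LINC01234, LINC00920, LINC01106 and LINC01270 remained called without any 1 library, and each of the other 11 was lost without at least 1 Ctrl or DAC library. LINC00667, LINC00883 and LINC00938 were also lost without some libraries of groups outside the comparison. Without replicate number 1 in all groups only LINC01234 was called, and likewise without number 2. No fall was called in either setting, where 1.69% and 1.86% of all genes were called.

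In the combination the balance was similar, and 6 of its 14 called genes were also called in DAC. A call in only 1 of these comparisons does not show a difference between the decitabine groups. DACTPL against DAC called 0 of the 187 genes. In DACTPL against Ctrl, 2 genes (1.07%) rose and 12 (6.42%) fell, against 8.64% and 4.83% of all genes tested, with a median of -0.08 against 0.01. On the TPM scale the split was 1 higher and 32 lower, where 26.1% of all genes were called and their median was itself shifted by -0.10. Besides LINC01234, the rise was LINC00087 (0.48, SE 0.14, edgeR adjusted p = 0.0393), 1 of the unmatched near-identical loci.

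LINC00629, on chromosome X, fell most among the called genes. Its CPM was 1.62, 1.2 and 1.3 in Ctrl, 1.08, 1.11 and 0.818 in DAC, 1.08, 1.4 and 0.986 in TPL, and 0.7, 0.654 and 0.64 in DACTPL. The 3 DACTPL libraries were the lowest of all 12, while DAC also lay below Ctrl without overlap and TPL overlapped both. It fell by 1.04 against Ctrl (SE 0.20, edgeR adjusted p = 0.00467) and by 0.79 against TPL (SE 0.21, adjusted p = 0.033).

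LINC00707, described in several tumours and among the 8 genes with the highest mean TPM, had 111, 108 and 82.2 CPM in Ctrl, 81.9, 81.2 and 56.2 in DAC, 90.6, 83.2 and 51.6 in TPL, and 55.3, 63.5 and 48.6 in DACTPL. DACTPL lay below Ctrl without overlap, while the third library was the lowest of its group in each of the 4 groups. It fell by 0.85 (SE 0.22, edgeR adjusted p = 0.0308). LINC00899 fell by 0.53 (SE 0.12, edgeR adjusted p = 0.00945), LINC00115 by 0.61 and LINC01260 by 0.61 (adjusted p = 0.0471 and 0.0452), and LINC00467, which encodes a small mitochondrial protein, by 0.31 (SE 0.08, adjusted p = 0.0164).

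Here the number of calls was 7 without the first Ctrl library and 9 without the second. It was 8 without the second DACTPL library and 8 without the third. Of all genes, 7.15%, 7.13%, 9.91% and 8.61% were called in these settings, in that order, against 13.5% with all libraries. LINC01234, LINC00920, LINC01106, LINC01270, LINC00482, LINC00629 and LINC00899 remained called without any 1 library. The other 7, LINC00707 and LINC00467 among them, were lost without at least 1 Ctrl or DACTPL library. Without replicate number 1 in all groups LINC01234 and LINC01270 were called, and without number 2 only LINC01234. In these settings 2.64% and 3.03% of all genes were called.

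Triptolide alone gave few calls. In TPL against Ctrl no gene rose and 3 (1.6%) fell, against 1.68% and 0.787% of all genes tested, with a median of -0.14 against -0.00. At an unadjusted p below 0.05 were 34 of the 187 genes, beside 3001 of all 15890. On the TPM scale the split was 0 higher and 102 lower, where the median of all genes was itself shifted by -0.27 and 60.5% of all genes were called. With the replicate number as a block 2 rose and 6 fell, where 8.11% of all genes were called, and 2 of the 3 calls were among these 8. LINC00907 fell by 0.90 (SE 0.21, edgeR adjusted p = 0.0461), from 1.06, 1.17 and 0.961 CPM in Ctrl to 0.503, 0.532 and 0.657 in TPL. LINC00342 fell by 0.65 (SE 0.15, adjusted p = 0.0499), a call that ended with the replicate block (adjusted p = 0.0707), and LINC00341, now the coding gene SYNE3, fell by 0.56 (SE 0.13, adjusted p = 0.0446). In each the 3 TPL libraries were below the 3 Ctrl libraries. None of the 187 genes was called without any 1 of the first and second Ctrl, TPL and DAC libraries or the third DACTPL library. In these settings 0.156% to 1.53% of all genes were called. There was 1 call without the first DACTPL library, 8 without the third Ctrl library and 10 without the third TPL library. Of all genes, 2.08%, 3.85% and 5.78% were called there, against 2.47% with all libraries. With the length trend taken off there was no call, where 0.994% of all genes were called.

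Against triptolide alone, the combination raised and lowered similar numbers. In DACTPL against TPL, 6 genes (3.21%) rose and 7 (3.74%) fell, against 6.93% and 3.59% of all genes tested, with a median of 0.09 against 0.01. On the TPM scale the split was 36 higher and 2 lower, where 30.4% of all genes were called and their median was itself shifted by 0.15. After LINC01234 the largest rise was in LINC00472, described as lost in breast tumours, with 0.354, 0.77 and 0.523 CPM in Ctrl, 0.896, 1.02 and 0.977 in DAC, 0.542, 0.465 and 0.263 in TPL, and 0.793, 1.03 and 1.06 in DACTPL. All 6 decitabine libraries were above the other 6. It rose by 1.18 (SE 0.30, edgeR adjusted p = 0.0265), while against Ctrl its differences of 0.84 in DAC and 0.82 in DACTPL did not pass the test (adjusted p = 0.0721 and 0.0691).

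LINC00907 rose by 0.87 (edgeR adjusted p = 0.0202), LINC00970 by 0.77 (adjusted p = 0.0219) and LINC01089, described as a suppressor of cell migration in mammary cells, by 0.43 (adjusted p = 0.0332). The remaining rise, LINC00997 by 0.49 (adjusted p = 0.049), had overlapping groups and was named after its values were seen. LINC01260 fell by 0.86 (SE 0.19, edgeR adjusted p = 0.0103), LINC00629 by 0.79, LINC00673 by 0.51, LINC00899 by 0.45 and LINC01270 by 0.42 (SE 0.08, adjusted p = 0.00427). LINC00673, described in the turnover of the phosphatase PTPN11, had 16.1, 16.3 and 20.4 CPM in Ctrl, 13.4, 15.5 and 16.5 in DAC, 22.5, 22.5 and 24.1 in TPL, and 16.7, 15.1 and 16.7 in DACTPL. Its TPL libraries were the highest 3 of the 12, although TPL against Ctrl did not pass the test (0.38, SE 0.10, edgeR adjusted p = 0.0638).

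The number of calls in this comparison was 7 without the first TPL library, 6 without the second and 32 without the third. It was 5 without the second DACTPL library and 6 without the third. Of all genes, 6.46%, 5.93%, 20.4%, 6.12% and 6.96% were called in these settings, in that order, against 10.5% with all libraries. LINC00467, LINC00673, LINC01234, LINC01260 and LINC01270 remained called without any 1 library. The other 8 were lost without at least 1 TPL or DACTPL library. Only LINC01234 was called without replicate number 1 in all groups, and likewise without number 2, where 2.37% and 2.23% of all genes were called.

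Adding triptolide to decitabine gave no call. In DACTPL against DAC, 0 of the 187 genes passed edgeR's test, against 0.0315% of all genes tested in either direction. At an unadjusted p below 0.05 there were 17 of the 187, beside 2419 of all 15890, DESeq2 called 0, and the median was 0.13 against 0.01. The lowest p was for LINC00839 (log2 fold change 0.62, SE 0.18, edgeR adjusted p = 0.275), whose 3 DACTPL libraries were above the 3 DAC libraries.

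The interaction asks whether the drugs together differ from the sum of their separate log2 changes. It was called by edgeR in 0 of the 187 genes, against 0.00629% of all genes tested, with a median of 0.26 against 0.00. At an unadjusted p below 0.05 were 42 of the 187, beside 2545 of all 15890. The 5 genes with the lowest p all had a positive value: LINC00970 1.34, LINC00342 1.09, LINC00672 0.90, LINC00907 1.28 and LINC00637 1.09 (edgeR adjusted p from 0.134 to 0.156). DESeq2, which tested 81 of the 187 genes here, called LINC00342 and LINC00672. In these 5 genes the 2 single-drug groups were lower and the combination closer to Ctrl. LINC00970, for example, had 1.62, 1.71 and 1.32 CPM in Ctrl, 0.869, 1.02 and 1.2 in DAC, 0.774, 0.93 and 0.986 in TPL, and 1.35, 1.65 and 1.63 in DACTPL. No TPL or DAC library reached the lowest Ctrl or DACTPL library. Without the third TPL library 16 genes were called for the interaction, beside 5.91% of all genes tested in that fit. On the TPM scale 54 were called with log2(TPM + 1) and 50 with log2(TPM + 0.1), all positive. On these scales 26.8% and 26.7% of all genes were called, and the median of all genes was itself shifted by 0.22 and 0.29.

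**Figure D4:**
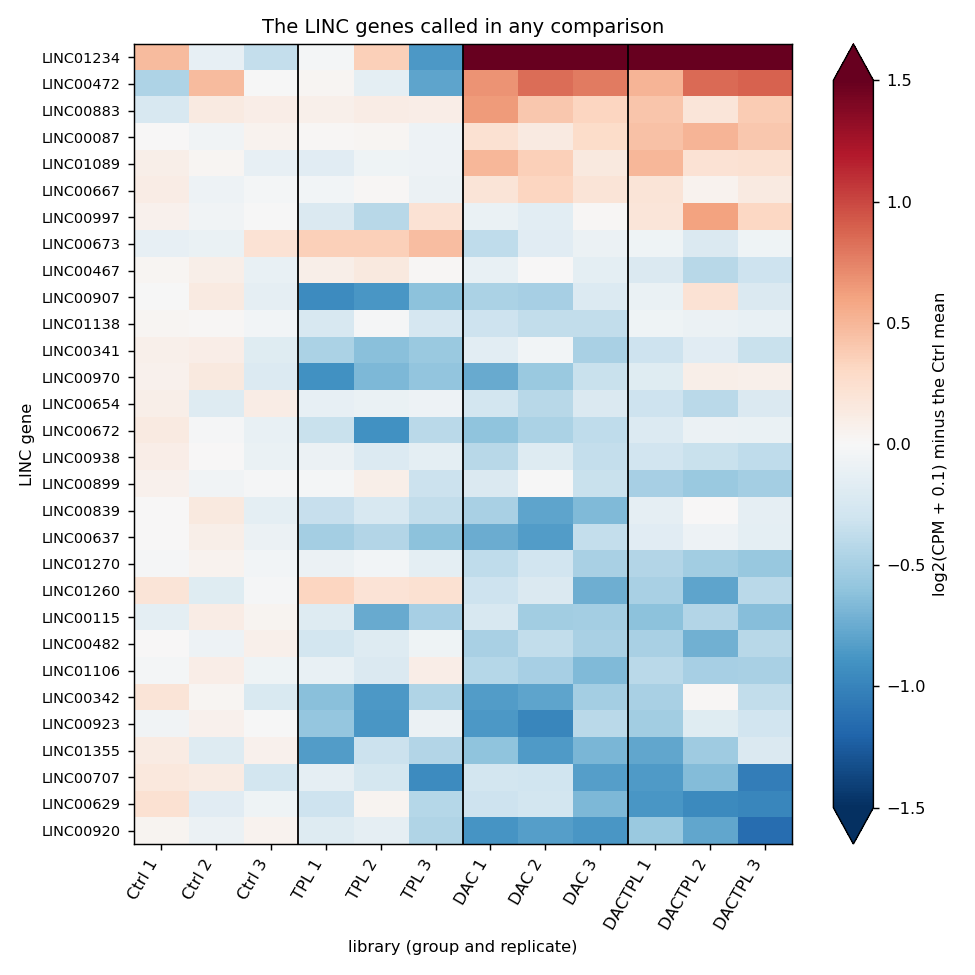
Log2(CPM + 0.1) of the 30 LINC genes called in any comparison, as the difference from the mean of the 3 Ctrl libraries, for 12 libraries (columns); colour is limited to 1.5 on either side. LINC01234 and LINC00472 lie above Ctrl in all 6 decitabine libraries, while LINC00970, LINC00637 and LINC00672 are lower in TPL and DAC and closer to Ctrl in DACTPL.

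The level of these genes as a whole moved together with a trend of the libraries on gene length. Over coding genes, the log2 level of a library relative to the 12-library mean correlated with gene length, with Spearman values of 0.24, 0.17 and 0.25 in Ctrl, -0.21, -0.31 and 0.10 in DAC, -0.39, -0.38 and 0.17 in TPL, and -0.20, 0.30 and 0.23 in DACTPL. The median deviation of the 187 genes, in log2 units, was 0.09, 0.07 and 0.07 in Ctrl, -0.10, -0.07 and -0.02 in DAC, -0.05, -0.06 and 0.02 in TPL, and -0.02, 0.09 and 0.02 in DACTPL. The 4 lowest medians were in the first and second TPL and DAC libraries, which also had the 4 lowest correlations with length. Within the 187 genes, log2 fold changes against Ctrl had Spearman correlations with length of -0.09 in DAC, -0.18 in TPL and 0.17 in DACTPL. Over coding genes these were -0.30, -0.36 and -0.04. Within the 187 genes the values were 0.25 in DACTPL against DAC, 0.32 in DACTPL against TPL and 0.29 for the interaction. Over coding genes they were 0.27, 0.26 and 0.51.

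The share of all counts taken by the 187 genes was also lowest in those 4 libraries, and averaged 0.18 ± 0.00306% in Ctrl, 0.152 ± 0.00781% in DAC, 0.157 ± 0.0123% in TPL, and 0.163 ± 0.00907% in DACTPL (SD, n = 3). After removal of the length trend from every library, 19 of the genes were called in DAC against Ctrl, 0 in TPL, 16 in DACTPL, 14 in DACTPL against TPL, and 0 in the other 2 comparisons. Of all genes, 9.89% were called in DAC, 0.994% in TPL and 15.4% in DACTPL against Ctrl, and 11.3% in DACTPL against TPL. The shares were 0.0378% in DACTPL against DAC and 0.0189% for the interaction. The medians against Ctrl were then -0.21 in DAC, -0.17 in TPL and -0.08 in DACTPL.

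**Figure D5:**
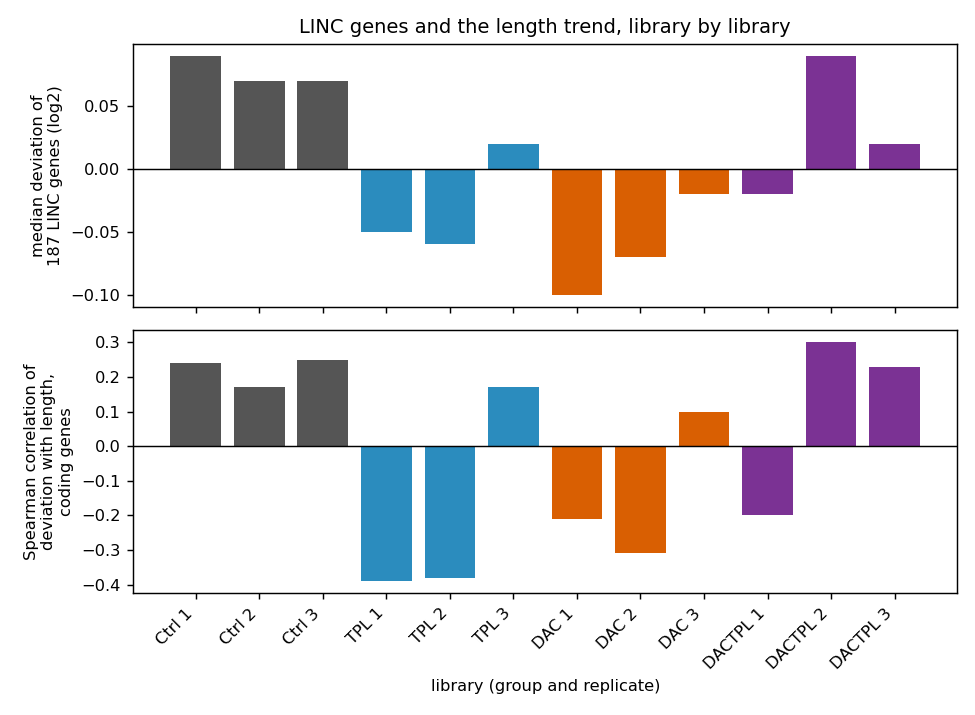
For each of the 12 libraries, the median log2 deviation of the 187 LINC genes from their mean over all libraries (top) and the Spearman correlation of that deviation with gene length over coding genes (bottom). The first and second TPL and DAC libraries are the lowest 4 in both panels, and all 3 Ctrl libraries are above 0 in both.

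RNAs known from cancer studies were also taken as a list. Of its 30 LINC genes, 22 were tested. In DAC against Ctrl 1 (4.55%) rose, LINC01234, and 2 (9.09%) fell, LINC00920 and LINC00839, against 6.27% and 3.59% of all genes. In DACTPL against Ctrl 1 (4.55%) rose, LINC01234, and 2 (9.09%) fell, LINC00920 and LINC00467, against 8.64% and 4.83%. In DACTPL against TPL 2 (9.09%) rose, LINC01234 and LINC00472, and 2 (9.09%) fell, LINC00673 and LINC00467, against 6.93% and 3.59%, and none was called in TPL against Ctrl. LINC00460 had 0.464 ± 0.044 CPM in Ctrl and 0.651 ± 0.0737 in DACTPL (log2 fold change 0.50, edgeR adjusted p = 0.17). LINC00941 had 3.31 ± 0.529 in Ctrl and 4.18 ± 0.905 in DAC (0.34, adjusted p = 0.279), so the group means of both differed without passing the test.

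Of 13 LINC genes on a list with a described small protein, 9 were tested and only LINC00467 was called, in DACTPL against Ctrl and against TPL. LINC00116, which encodes mitoregulin, had 7.42 ± 0.386 CPM in Ctrl, 8.77 ± 0.584 in DAC, 9.17 ± 1.54 in TPL, and 8.08 ± 0.914 in DACTPL (SD, n = 3; edgeR adjusted p = 0.225, 0.196 and 0.524 against Ctrl). LINC00094, named BRD3OS, was steady at 28 ± 0.48, 27.9 ± 1.08, 26.9 ± 0.77 and 26.6 ± 1.42 CPM in the same order, within 0.08 log2 units of Ctrl. Both lists were drawn up with earlier results of these data known.

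The nearest measured genes on either side of the called LINC genes were taken from the order of genes in RefSeq. Of 30 neighbours of the 15 genes called in DAC against Ctrl, 18 had the same sign of fold change as the LINC gene and 3 (10%) were called in either direction, against 9.86% of all genes. CDH5, the endothelial cadherin, lies next to LINC00920 and moved the other way: it rose by 2.44 in DAC and by 2.60 in DACTPL against Ctrl (edgeR adjusted p = 1.10e-05 and 3.88e-06), while LINC00920 fell by 0.96 and 0.88. SDSL and RBM19 on either side of LINC01234 had differences of 0.15 and -0.00 in DAC, neither called, although RBM19 rose by 0.27 in DACTPL against TPL (edgeR adjusted p = 0.0381).

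Of 26 neighbours in DACTPL against Ctrl, 12 had the same sign and 2 (7.69%) were called, against 13.5% of all genes. They were CDH5 and SLC30A1, a zinc exporter next to LINC00467 that rose by 0.61 (edgeR adjusted p = 0.00961) where LINC00467 fell by 0.31. In DACTPL against TPL 5 of 26 (19.2%) were called, against 10.5% of all genes, among them HPD, an enzyme of tyrosine breakdown next to LINC01089, which rose by 6.35 (edgeR adjusted p = 2.11e-08), and KCNQ5, a potassium channel gene next to LINC00472, which rose by 0.59 (adjusted p = 0.043). LINC01089 itself rose by 0.43 and LINC00472 by 1.18.

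Other noncoding genes are given for comparison. Of 333 antisense RNA genes with the same minimum total, 3 (0.901%) rose and 21 (6.31%) fell in DAC against Ctrl, and 5 (1.5%) rose and 26 (7.81%) fell in DACTPL against Ctrl, beside 3 and 12, and 2 and 12, of the 187 LINC genes. Of 46 named long noncoding RNAs outside the LINC numbering, 34 were tested. In DAC against Ctrl H19 and UCA1 rose, by 4.46 and 2.38, and HOTAIR and MIR22HG fell, by 0.48 and 0.25 (edgeR adjusted p = 7.33e-10, 0.00114, 0.0242 and 0.0469). In DACTPL against Ctrl H19, UCA1, TERC and CASC15 rose and MIR22HG fell, and in TPL against Ctrl MIR17HG fell. UCA1, a bladder cancer RNA, had 11 counts in Ctrl and 58 in DAC, and like LINC01234 was scarce before treatment.

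The authors' own tests, run with DESeq2, were set beside these calls. In the authors' deposited table for DAC against Ctrl 2 of the 187 genes were higher and 11 lower, 11 of these 13 also called here. In the authors' deposited table for DACTPL against Ctrl 1 was higher and 10 lower, 10 of them also called here. The authors' deposited table for TPL against Ctrl gave 1 higher and 5 lower, beside the 3 lower here, with 2 genes in both, that for DACTPL against TPL 6 higher and 6 lower, 11 of them called here, and that for DACTPL against DAC none.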

How the data were processed

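RNA of 12 DU145 libraries, in 4 groups of 3 taken from the labels, was compared. Expected counts and TPM of each gene were deposited in a single table; the submitters' processing notes name RSEM 1.2.09 and hg19, and per the submitters' processing notes the authors used these. The library kit was stranded, per the labels' protocols. The aligner, the gene annotation and the strand setting of the counting are not given in the sources used here. For each pairwise comparison the authors deposited log2 fold changes with p-values, and DESeq2 and R 4.0.4 are named per the submitters' processing notes. The authors also deposited a list of genes with values that they name z-scores; how the authors made this score before it was deposited is not given in the sources used here.

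Expected counts, 46.9% of which lay within 0.005 of a whole number for these genes, were rounded. The test was that of edgeR 4.0.16 (R 4.3.3): TMM factors (0.957 to 1.028), the filterByExpr filter by group, quasi-likelihood fits (robust) with all 12 libraries, and two-sided calls at a Benjamini-Hochberg adjusted p below 0.05 over 15890 genes. The biological coefficient of variation was 9%. Deposited TPM are above 0 for some genes with 0 counts, so TPM below about 0.1 says little. Libraries with the same replicate number deviated together, with a correlation above 0.1 in all 3 pairs, between Ctrl and DAC (0.16 to 0.45) and between Ctrl and TPL (0.16 to 0.46). The test above used the groups only and did not pair libraries, so in those 2 comparisons the calls with a replicate block are printed beside it. This pairing was read from the data, since the labels do not say what a number marks. With counts of a few reads the depth limits precision, and the test covers the spread between libraries.

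The 187 genes, the gene lists and the rule for named genes were chosen with earlier results of these data known. Named are the 8 genes with the highest mean TPM, the called genes with the largest log2 fold change (10 in each direction for DAC and DACTPL against Ctrl, 5 otherwise) whose groups did not overlap, members of the lists, and neighbours; the text prints a selection. Gene classes, neighbours and promoters came from RefSeq tables on GRCh38.p14, used for names, order and sequence, since the files are on hg19. Alternatives were DESeq2 1.42.0 and its size factors, other filters, limma 3.58.1 on log2(TPM + 1) and log2(TPM + 0.1) with a mean TPM of at least 0.1, a fit of only the groups compared, a replicate block, removal of the length trend, and each library left out. The edgeR steps were also checked on simulated counts.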

Additional observations from a re-analysis of the deposited data

How the results depend on the processing

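No called gene changed direction under any alternative. On the TPM scale the median of all genes moved, by -0.27 in TPL against Ctrl with log2(TPM + 1) and by -0.34 with log2(TPM + 0.1), so that calls there are relative to that shift. With log2(TPM + 1), 27 of the 187 genes were called in DAC, 102 in TPL and 33 in DACTPL against Ctrl, 38 in DACTPL against TPL and 54 for the interaction. With log2(TPM + 0.1) the counts were 22, 103, 33, 39 and 50 in the same order. Of all genes, log2(TPM + 1) called 10.3%, 60.5%, 26.1%, 30.4% and 26.8% in the order above. With log2(TPM + 0.1) these shares were 9.58%, 60.7%, 25.3%, 31.2% and 26.7%. TPL against Ctrl, with 3 calls, gave 1 with no filter, 6 with DESeq2, 0 with only the groups compared and 0 with the length trend taken off. DESeq2 tested 81 of the 187 genes there and called 6.65% of all genes. The other 3 settings called 1.55%, 0.15% and 0.994% of all genes, in that order. DACTPL against TPL, with 13 calls, gave 5 with only the groups compared, where 5.04% of all genes were called. For the interaction DESeq2 called 2 of the 81 genes it tested, beside 0.956% of all genes. The causes were not tested.

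Libraries, or a replicate number in all groups, were also left out. This gave 1 to 29 calls in DAC, 0 to 17 in TPL and 1 to 20 in DACTPL against Ctrl. It gave 0 to 11 in DACTPL against DAC, 1 to 32 in DACTPL against TPL and 0 to 28 for the interaction. Over the same settings 1.69% to 17.6% of all genes were called in DAC, 0% to 11.7% in TPL and 2.64% to 24% in DACTPL against Ctrl. The shares were 0% to 13.4% in DACTPL against DAC, 2.23% to 23.3% in DACTPL against TPL and 0% to 12.9% for the interaction. Counting only the 143 genes classed as long noncoding RNA without a coding overlap was an alternative chosen after seeing the data. It gave 12, 2 and 11 calls in DAC, TPL and DACTPL against Ctrl and 10 in DACTPL against TPL. Of all genes, 9.86%, 2.47%, 13.5% and 10.5% were called in the same order. For the comparisons with DACTPL the calls with a replicate block are printed only here, since not every pair correlated above 0.1: 1 of 3 pairs did between Ctrl and DACTPL (-0.07 to 0.19), 2 of 3 between TPL and DACTPL (-0.29 to 0.26) and 2 of 3 between DAC and DACTPL (-0.13 to 0.26). Over all groups 6 of the 12 libraries correlated best with their own number. With replicate number as a block, 25 genes were called in DAC, 8 in TPL and 21 in DACTPL against Ctrl, 1 in DACTPL against DAC (LINC00707), 19 in DACTPL against TPL and 0 for the interaction. Of all genes, the block called 16.2%, 8.11%, 21.4%, 3.65%, 16.2% and 0.00629% in the same order. The block ended the call of LINC00342 in TPL against Ctrl and no other call. Genes at a few counts per library, such as LINC01234 in Ctrl, are limited by depth, and LINC01234 and LINC00839 were not tested under the stricter count filter of 1 CPM in 3 libraries.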
